A study of Mus musculus with 22 samples.

Results

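The clustered replication-dependent histone genes were examined in LSK cells, a sorted fraction of mouse bone marrow that is negative for lineage markers, carries Sca-1 and Kit, and contains blood stem cells and multipotent progenitors. Every gene whose symbol begins with Hist1h, Hist2h, Hist3h or Hist4h was taken, which gave 70 of the 33641 gene symbols measured. By prefix they were 56 Hist1, 10 Hist2, 3 Hist3 and 1 Hist4 genes. By class they were 6 H1, 20 H2A, 19 H2B, 12 H3 and 13 H4 genes, and 3 of the 70 are annotated as pseudogenes in RefSeq.

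RNA was sequenced from 4 genotypes of C57BL/6 mice with 3 libraries each. They were the double knockout (labelled Chd8-/-P53-/-, here DKO), the Chd8 knockout (Chd8-/-, Chd8 KO), the P53 knockout (P53-/-, P53 KO) and wild type (WT). The protocol text shared by all samples states that pI:pC, an RNA mimic used to switch on interferon-driven Cre alleles, was injected, and cells of every genotype were sorted 6 days after deletion and not cultured. CHD8 is a chromatin remodeler that binds beta-catenin and P53, and P53 is a transcription factor that stops the division of damaged cells or triggers their death. The Cre line, the age of the mice and the number of animals behind a library were not given in the sources used here. Adjusted p-values therefore measure the spread between these libraries, which may be technical.

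Clustered histone genes supply the histones that package newly copied DNA. They lie close together, have no introns in their usual form, and are transcribed in S phase at nuclear bodies organised by NPAT. Their mRNAs usually end in a stem-loop bound by SLBP in place of a poly(A) tail and are degraded when DNA synthesis stops. H2A, H2B, H3 and H4 form the core of the nucleosome, and H1 binds the linker DNA between nucleosomes. Some of the genes can also give longer, polyadenylated transcripts, which in cells that have left the cycle are less tied to S phase.

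The start regions of 4 genes are shown because the measurements below turn on them and because they differ in layout between classes. Each runs 5′ to 3′ along the gene's own strand, from 250 bases before to 50 bases after the annotated start, and comes from RefSeq on GRCm38.p6. Capitals mark the letters of 3 motifs found on either strand. These are the octamer ATTTGCAT, known as the binding site of OCT1 in H2B promoters, TATAAA, and CCAAT, the box bound by NF-Y. On the other strand the octamer reads ATGCAAAT and the CCAAT box reads ATTGG.
Hist1h2bb, chr13:23746484-23746783, plus strand: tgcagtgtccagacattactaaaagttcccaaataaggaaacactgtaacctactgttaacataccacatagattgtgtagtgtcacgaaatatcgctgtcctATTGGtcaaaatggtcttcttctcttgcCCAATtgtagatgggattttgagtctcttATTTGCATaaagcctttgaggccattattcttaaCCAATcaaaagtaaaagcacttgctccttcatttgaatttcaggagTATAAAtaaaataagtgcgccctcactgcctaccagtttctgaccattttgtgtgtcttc
Hist1h2bg, chr13:23571150-23571449, plus strand: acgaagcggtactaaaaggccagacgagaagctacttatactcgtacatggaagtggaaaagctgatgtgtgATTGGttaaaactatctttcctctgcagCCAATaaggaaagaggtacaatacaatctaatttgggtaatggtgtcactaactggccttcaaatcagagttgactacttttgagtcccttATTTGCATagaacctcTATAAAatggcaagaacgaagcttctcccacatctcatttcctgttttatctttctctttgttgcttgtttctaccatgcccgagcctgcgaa
Hist1h2ac, chr13:23683910-23684209, minus strand: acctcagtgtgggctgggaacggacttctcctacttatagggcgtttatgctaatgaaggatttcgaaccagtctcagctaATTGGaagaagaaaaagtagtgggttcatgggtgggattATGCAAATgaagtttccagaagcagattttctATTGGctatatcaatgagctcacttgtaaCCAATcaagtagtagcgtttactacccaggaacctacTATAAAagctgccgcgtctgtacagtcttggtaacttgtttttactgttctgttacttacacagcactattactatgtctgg
Hist1h4i, chr13:22041313-22041612, minus strand: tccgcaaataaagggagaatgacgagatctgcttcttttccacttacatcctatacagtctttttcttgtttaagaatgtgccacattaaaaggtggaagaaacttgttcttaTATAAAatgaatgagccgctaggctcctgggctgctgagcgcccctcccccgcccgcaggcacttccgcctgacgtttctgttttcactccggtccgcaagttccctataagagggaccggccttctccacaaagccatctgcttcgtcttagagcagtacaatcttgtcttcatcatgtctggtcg

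Hist1h2bb, Hist1h2bg and Hist1h2ac each carried an octamer, a TATAAA and at least 1 CCAAT, whereas Hist1h4i carried only a TATAAA. The Hist1h2ac region reaches back across the 239 bases that separate this gene from its H2B neighbour Hist1h2bc. RefSeq start regions were found for 62 of the 70 genes, 63 regions in all. The octamer was present in 22.2% of them, against 1.74% of all 32851 start regions of the same length. It was found in 7 of 18 H2A and 7 of 17 H2B regions and in none of the 6 H1, 10 H3 and 12 H4 regions. Regions of close H2A and H2B neighbours on opposite strands overlap, and both strands were read. The same octamer can thus be counted for both genes, so these regions are not independent sites. TATAAA was present in 55.6% of the histone regions, against 13.6% of all regions. CCAAT was present in 85.7%, against 37.4% of all regions, and was in every H1, H2A, H2B and H3 region but in 25% of those of H4. A letter match describes the sequence and shows no binding.

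Levels are the TPM values that the authors deposited, which are scaled to transcript length and to a fixed total, so depth is unknown and levels are relative. The test took the 13162 genes whose mean over the 12 libraries reached 1 TPM. Trp53 averaged 17.1 ± 0.988 TPM in DKO, 254 ± 12.4 TPM in Chd8 KO, 21.3 ± 3.43 TPM in P53 KO and 254 ± 21.1 TPM in WT (SD, n = 3 each). Chd8 averaged 41.1 ± 5.44, 30.1 ± 4.92, 62.1 ± 8.25 and 63.1 ± 13.3 TPM in the same order, and its log2 change was -1.03 for Chd8 KO relative to WT (adjusted p = 0.00357) and -0.59 for DKO relative to WT, which did not pass the test (adjusted p = 0.078). Run numbers put P53 KO replicates 1 and 2 in a run of 2 libraries and the other 10 in 1 run. The 13 mitochondrial genes summed to 21170 and 19040 TPM in those 2 libraries and to between 53260 and 69740 TPM in the other 10. Kit and Ly6a, which encode the surface markers of the gate, were between 180 and 295 TPM and between 85.0 and 356 TPM, and no marker of another blood lineage was at 0 in every library. Of 10 gate, stem or progenitor markers, 4 (Ly6a, Slamf1, Procr and Cd48) were higher in Chd8 KO than in WT and 1, Flt3, lower. At an adjusted p under 0.05 in limma, those were 40% and 10%, against 9.65% and 6.98% of all tested genes. In DKO against Chd8 KO Ly6a, Slamf1 and Cd48 were lower and Flt3 higher (30% and 10%, against 4.21% and 6.32%). In DKO against WT 0 passed.

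The histone genes were a small part of each library, between 0.0277% and 0.0577% of all TPM. Whether poly(A) RNA was selected was not given in the sources used here, and these mRNAs mostly lack the tail. Of the 70 genes, 56 reached the mean of 1 TPM and 14 did not. Hist1h2ao and Hist1h2al reached it only through WT and through Chd8 KO, so a call of either was conditioned on the filter. The 14 were Hist1h4j, Hist2h3c1, Hist1h2bq, Hist1h3f, Hist4h4, Hist1h3b, Hist1h2br, Hist2h3c2, Hist3h2bb-ps, Hist2h2ab, Hist2h4, Hist1h1t, Hist1h2aa and Hist1h2ba. Among them Hist1h1t, Hist1h2aa and Hist1h2ba, which encode testis histones, had means of 0.0515, 0.0309 and 0 TPM. The level was concentrated in few genes. Hist1h4i (47.1 TPM over the 12 libraries), Hist1h2bc (45.0 TPM), Hist1h2bg (31.4 TPM) and Hist1h1c (19.1 TPM) held 36.3% of it. In class terms Hist1h4i held 52.9% of H4, Hist1h1c 52.3% of H1 and Hist1h2bc 29.7% of H2B, whereas the top H2A gene, Hist2h2aa2, held 10.8% of H2A and the top H3 gene, Hist1h3c, 17.6% of H3.

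Near-identical copies limit what a single gene's level means. RefSeq rows list 32 of the 70 genes in 5 groups of copies whose entries carry each other's symbols as synonyms, namely all 13 H4 genes, 2 groups of H3 and 2 groups of H2B. Transcript sequences were not compared. The 20 H2A genes are in none of these groups, and their single levels may carry the same limit. How reads that match several copies were assigned was not given in the sources used here. Values at 0 occurred in 8 of the 56 tested genes, in 23 of 672 gene-by-library values. Since 38 of the 6963 genes with a median of at least 20 TPM were also at 0 in at least 1 library, such a value is given as listed at 0.

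Summed over all 70 genes, the level was 279, 277 and 321 TPM in the 3 DKO libraries, 382, 329 and 377 TPM in Chd8 KO, 441, 577 and 326 TPM in P53 KO, and 474, 449 and 489 TPM in WT. Every DKO library was below every library of the other 3 genotypes, and every Chd8 KO library was below every WT library. Without Hist1h2bg, an alternative chosen after seeing the data, DKO replicate 3 (314.5 TPM) was above Chd8 KO replicate 2 (311.2 TPM), while both genotypes stayed below every WT library. P53 KO spanned the WT range, and its lowest library was the one sequenced in the run of 10. The means were 292 ± 25.1 TPM in DKO, 363 ± 29.3 TPM in Chd8 KO, 448 ± 126 TPM in P53 KO and 471 ± 20.3 TPM in WT (SD, n = 3 each). The log2 ratio of the means was -0.69 for DKO to WT, -0.38 for Chd8 KO to WT and -0.31 for DKO to Chd8 KO, and median-of-ratios scaling kept each of them negative. Within the run of 10, where P53 KO has 1 library, the log2 ratio of DKO to P53 KO was -0.155, against -0.615 with all libraries, and that of P53 KO to WT was -0.531, against -0.072. No test was made on sums, because the genes were chosen with results of these data known. In RNA from a whole sorted population, fewer cells that express a gene and less RNA per cell cannot be told apart.

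**Figure D1:**
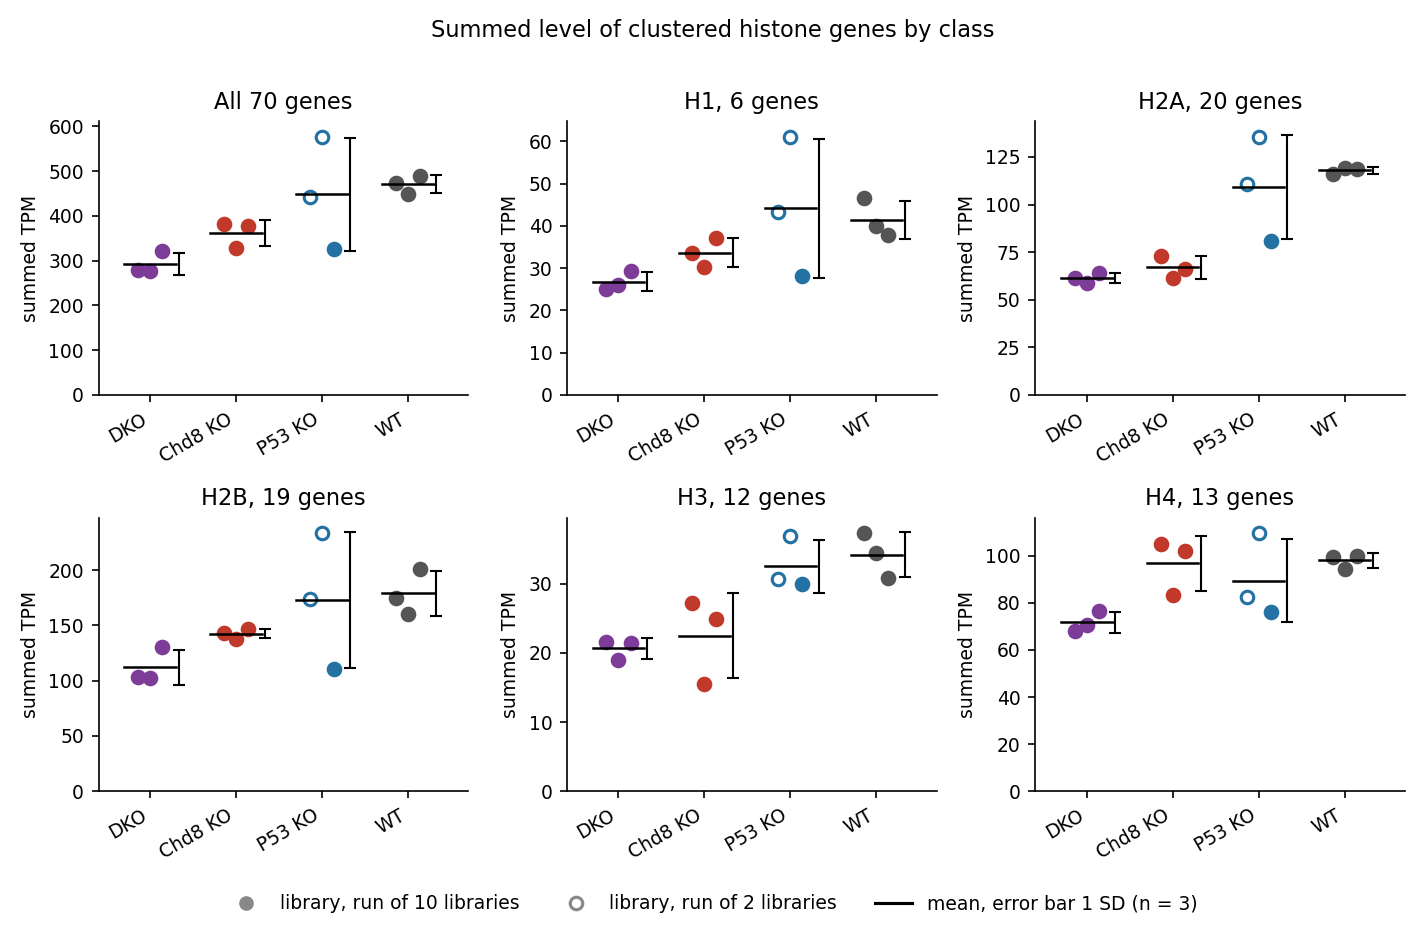
Summed TPM of all 70 clustered histone genes and of each class in every library, by genotype, with the mean and 1 SD (n = 3). Open points mark the 2 P53 KO libraries of the other run. DKO libraries lie below all WT libraries in all 6 panels, and Chd8 KO libraries do so in 5 of them, H4 being the exception.

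The classes did not move by equal amounts. H2A, the class with the largest relative difference, averaged 61.2 ± 2.64 TPM in DKO, 66.9 ± 5.84 TPM in Chd8 KO, 109 ± 27.3 TPM in P53 KO and 118 ± 1.78 TPM in WT (SD, n = 3 each). H2B averaged 112 ± 15.8 TPM in DKO, 143 ± 4.501 TPM in Chd8 KO, 173 ± 61.5 TPM in P53 KO and 179 ± 20.6 TPM in WT. H3 averaged 20.7 ± 1.48 TPM in DKO, 22.5 ± 6.15 TPM in Chd8 KO, 32.5 ± 3.77 TPM in P53 KO and 34.2 ± 3.22 TPM in WT. In these core classes DKO and Chd8 KO both had all 3 libraries below all WT libraries. H4 averaged 71.7 ± 4.28 TPM in DKO, 96.8 ± 11.7 TPM in Chd8 KO, 89.4 ± 17.8 TPM in P53 KO and 98.03 ± 3.003 TPM in WT, so that Chd8 KO overlapped WT. Without Hist1h4i the other 12 H4 genes averaged 31.8 ± 2.82 TPM in DKO, 37.9 ± 6.12 TPM in Chd8 KO, 45.4 ± 11.7 TPM in P53 KO and 52.5 ± 4.495 TPM in WT, and Chd8 KO no longer overlapped WT. The linker class H1 averaged 26.8 ± 2.30 TPM in DKO, 33.7 ± 3.46 TPM in Chd8 KO, 44.1 ± 16.5 TPM in P53 KO and 41.5 ± 4.51 TPM in WT.

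Gene by gene, changes were log2 fold changes of TPM + 1 from limma, a scale that understates changes of low genes, and the threshold was an adjusted p of 0.05. In DKO against WT, 8 of the 56 tested histone genes were lower and 0 higher, where 1.77% of all tested genes were lower and 3.46% higher. The 8 were Hist1h2ao, Hist1h2ai, Hist1h2ak, Hist1h2bb, Hist1h2bj, Hist1h2bk, Hist1h4b and Hist1h4d. Of these, Hist1h2ao was tested only because it is high in WT, so its call was conditioned on the filter. The median change of the 56 was -0.67 and 50 of them were negative, against a median of 0.09 over all tested genes. In 28 of the 56 every DKO library was below every WT library, against 9.12% of all tested genes. Median-of-ratios scaling gave 243 higher and 372 lower genes over the whole table, in place of 455 and 233, and called 14 histone genes, all lower. The count was 2 without WT replicate 2, 4 without WT replicate 1, DKO replicate 2 or DKO replicate 3, and 12 without P53 KO replicate 3, which enters through the shared spread. Without P53 KO replicate 3 the whole table gave 721 higher and 328 lower genes, in place of 455 and 233.

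In Chd8 KO against WT, 7 genes were lower and 3 higher, where 6.98% of all tested genes were lower and 9.65% higher. The lower genes were Hist1h2ao, Hist2h2aa1, Hist1h2an, Hist1h2ak, Hist1h2bj, Hist1h2bk and Hist1h3e, and the higher ones Hist1h2bc, Hist1h4i and Hist1h2al. Of these, Hist1h2ao was tested only through WT and Hist1h2al only through Chd8 KO, so both calls were conditioned on the filter. The median of the 56 was -0.48, with 48 negative, against 0.02 over all tested genes. In 21 of the 56 every Chd8 KO library was below every WT library, against 14.4% of all tested genes. Hist1h2ao, Hist1h2ak, Hist1h2bj and Hist1h2bk were lower both here and in DKO against WT, comparisons that share the WT libraries. The count of 10 was 4 without WT replicate 1, 5 without Chd8 KO replicate 2, WT replicate 2 or Chd8 KO replicate 3, 6 without Chd8 KO replicate 1, DKO replicate 1 or DKO replicate 3, and 15 without P53 KO replicate 3. Without P53 KO replicate 3 the whole table gave 1712 higher and 1152 lower genes, in place of 1270 and 919.

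In P53 KO against WT, limma called 0 histone genes in either direction, where 0.076% of all tested genes were higher and 0.106% lower. Before adjustment 4 of 56 were lower and 0 higher at p under 0.05, where 9.07% of all tested genes were lower and 5.6% higher. The median was -0.13, against -0.03 over all tested genes, and 5 genes had every P53 KO library below every WT library, against 7.55% of all tested genes. The median was -0.25 without P53 KO replicate 2, -0.29 within the run of 10 and 0.0064 without P53 KO replicate 3, so its sign rested on 1 library. With P53 KO replicate 3 left out, so that P53 KO had only the other run, 2 genes were called, both lower. Over the whole table that fit called 418 genes higher and 835 lower, in place of 10 and 14.

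DKO was also set against each single knockout. Against Chd8 KO, 4 genes were lower (Hist1h2al, Hist1h2bb, Hist1h1d and Hist1h4i) and 0 higher, where 4.21% of all tested genes were lower and 6.32% higher. Of these, Hist1h2al was tested only because it is high in Chd8 KO, so its call was conditioned on the filter. The median was -0.13, against 0.06 over all tested genes, and 15 genes were lower with no overlap between libraries, against 16.2% of all tested genes. Against P53 KO, 6 genes were lower (Hist1h2bb, Hist1h4f, Hist1h4n, Hist1h2bj, Hist1h2ak and Hist1h1d) and 0 higher, where 3.69% of all tested genes were lower and 11.2% higher. The median was -0.55, against 0.11, and 18 genes were lower with no overlap, against 8.59% of all tested genes. Within the run of 10, with 1 P53 KO library, 0 of the 6 passed. Median-of-ratios scaling moved the median of all genes in DKO against P53 KO by -0.121 and in the interaction by -0.112. It gave 494 higher and 741 lower genes in place of 1471 and 486 in DKO against P53 KO, and 685 higher and 864 lower in place of 832 and 554 in DKO against Chd8 KO, while the histone calls were still all lower. Against Chd8 KO the count was 2 without Chd8 KO replicate 1, and 7 lower and 1 higher without P53 KO replicate 3. Without P53 KO replicate 3 the whole table gave 1113 higher and 733 lower genes there. The median against Chd8 KO was -0.29 without Chd8 KO replicate 2 and -0.20 without DKO replicate 3, and that against P53 KO was -0.25 within the run of 10. Against P53 KO the count was 2 without P53 KO replicate 2, 3 without P53 KO replicate 1 or DKO replicate 3, and 16 without P53 KO replicate 3. In that last fit the whole table gave 2224 higher and 865 lower genes.

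The interaction compared the Chd8 effect without P53 with the Chd8 effect with P53, as the difference of the log2 changes. Of the 56 genes 1, Hist1h2al, was lower and 0 higher, where 0.836% of all tested genes were lower and 0.965% higher. Hist1h2al was tested only because it is high in Chd8 KO, so this count is no support for an interaction. The median difference was -0.10, with 30 of 56 negative, against 0.10 over all tested genes. Median-of-ratios scaling gave 113 higher and 154 lower genes in place of 127 and 110, with Hist1h2al still lower. The median was 0.024 without Chd8 KO replicate 1, 0.057 without P53 KO replicate 2, 0.0033 without DKO replicate 1, 0.10 within the run of 10 and -0.25 without Chd8 KO replicate 2, so its sign was not stable. The count was 2 lower without P53 KO replicate 3, and 1 lower and 1 higher without WT replicate 3. Over the whole table these fits called 995 higher and 567 lower genes, and 111 higher and 93 lower genes. In all, 17 of the 56 genes were called in at least 1 of the 6 contrasts and 39 in none. Hist1h2al and Hist1h2ao are among the 17. The same count was not taken over all tested genes, so these numbers only describe the list.

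**Figure D2:**
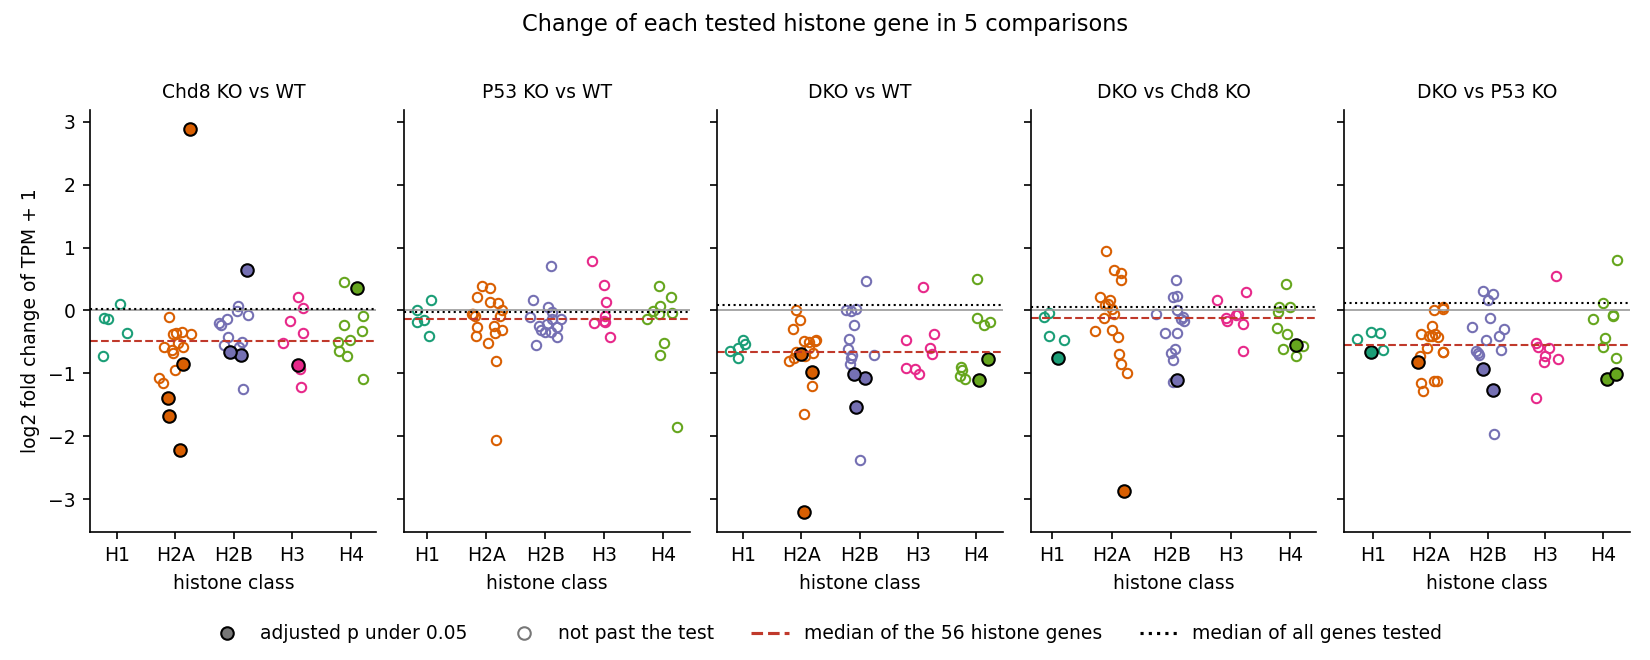
Log2 fold change of TPM + 1 for each of the 56 tested histone genes by class, in 5 comparisons. Filled points passed limma at an adjusted p under 0.05. The dashed line is the median of the 56 and the dotted line the median of all 13162 tested genes, and the dashed line lies lowest against WT in DKO, at -0.67.

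Hist1h1d was the only called gene among the linker histones, whose 5 tested members include Hist1h1c, Hist1h1d and Hist1h1b as the highest. It had 4.48, 3.26 and 2.82 TPM in DKO, 7.35, 5.75 and 6.67 TPM in Chd8 KO, 6.14, 7.29 and 4.93 TPM in P53 KO, and 6.84, 6.62 and 4.76 TPM in WT. All DKO libraries were below all others, though one by little. Its log2 change was -0.76 ± 0.19 (SE) in DKO against Chd8 KO (adjusted p = 0.0305) and -0.66 ± 0.19 against P53 KO (adjusted p = 0.0422), and -0.65 ± 0.19 against WT, which did not pass (adjusted p = 0.0754). Hist1h1c had 11.2, 14.7 and 18.3 TPM in DKO, 14.3, 15.5 and 17.0 TPM in Chd8 KO, 24.2, 41.5 and 11.7 TPM in P53 KO, and 22.0, 18.1 and 21.1 TPM in WT. The 2 highest of these were the P53 KO libraries of the other run, and Hist1h1c passed no test. Hist1h1b averaged 2.79 ± 0.358 TPM in DKO, 4.29 ± 1.08 TPM in Chd8 KO, 4.20 ± 0.560 TPM in P53 KO and 4.77 ± 0.708 TPM in WT, and also passed no test.

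Among H2A genes the largest fall against WT was in Hist1h2ao. It was listed at 0 in all 3 DKO libraries and had 0.704, 1.81 and 0.661 TPM in Chd8 KO, 2.55, 2.13 and 0 TPM in P53 KO, and 7.68, 9.77 and 7.53 TPM in WT. WT was high and every other library low, with no overlap. Its log2 change was -2.22 ± 0.41 for Chd8 KO relative to WT (adjusted p = 0.00552), and limma called it lower in DKO against WT (adjusted p = 0.00198). It reached the mean of 1 TPM only through WT, so it had to differ to be tested. Hist1h2an and Hist1h2ap are neighbouring H2A genes of the same block, and the 3 summed averaged 6.97 ± 1.41 TPM in DKO, 8.74 ± 0.550 TPM in Chd8 KO, 12.4 ± 3.53 TPM in P53 KO and 21.7 ± 7.84 TPM in WT. Hist1h2an itself had 1.03, 1.67 and 1.40 TPM in DKO, 0.758, 0.396 and 0.401 TPM in Chd8 KO, 0.783, 1.10 and 2.09 TPM in P53 KO, and 3.56, 6.01 and 0.933 TPM in WT. Chd8 KO was lowest in every library, though WT replicate 3 was nearly as low, and the log2 change was -1.39 ± 0.40 (adjusted p = 0.0379).

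Hist2h2aa1 and Hist2h2aa2 are neighbouring H2A genes on opposite strands of chromosome 3. Hist2h2aa1 had 5.38, 5.61 and 6.22 TPM in DKO, 4.54, 1.36 and 2.26 TPM in Chd8 KO, 16.0, 21.4 and 7.21 TPM in P53 KO, and 12.2, 10.5 and 8.19 TPM in WT. Chd8 KO was lowest and DKO lay between Chd8 KO and WT without overlapping either. The log2 change was -1.67 ± 0.37 in Chd8 KO against WT (adjusted p = 0.012), -0.73 ± 0.37 in DKO against WT (adjusted p = 0.277) and 0.95 ± 0.37 in DKO against Chd8 KO (adjusted p = 0.127). Summed over both genes the level was 13.5 ± 1.97 TPM in DKO, 7.46 ± 1.03 TPM in Chd8 KO, 27.01 ± 14.6 TPM in P53 KO and 23.9 ± 9.32 TPM in WT.

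Hist1h2ak and Hist1h2ai are further H2A genes of chromosome 13. Hist1h2ak had 2.79, 3.68 and 2.89 TPM in DKO, 2.63, 2.53 and 2.83 TPM in Chd8 KO, 7.74, 6.02 and 5.15 TPM in P53 KO, and 6.25, 5.86 and 4.84 TPM in WT. Both Chd8-deleted genotypes were below the other 2 genotypes, with no overlap. The log2 change was -0.85 ± 0.16 in Chd8 KO against WT (adjusted p = 0.00588), -0.69 ± 0.16 in DKO against WT (adjusted p = 0.0345) and -0.82 ± 0.16 in DKO against P53 KO (adjusted p = 0.0112). Hist1h2ai had 3.60, 5.04 and 5.06 TPM in DKO, 8.21, 5.78 and 4.07 TPM in Chd8 KO, 6.47, 9.82 and 7.30 TPM in P53 KO, and 9.31, 10.01 and 10.4 TPM in WT. DKO stood apart from WT, at -0.98 ± 0.22 (adjusted p = 0.0285), whereas Chd8 KO against WT did not pass (-0.68 ± 0.22, adjusted p = 0.0583). The other H2A genes with the highest means, Hist2h2aa2 at 9.56 TPM and Hist1h2ag at 8.83 TPM over the 12 libraries, passed no test.

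Hist1h2al, which carries an H2A symbol but is annotated in RefSeq as a transcribed pseudogene (H2af-ps2, chr13:51200084-51203066, far from the other Hist1 genes), had a pattern of its own. It had 5.76, 5.55 and 7.96 TPM in Chd8 KO and was listed at 0 in all 3 DKO, all 3 P53 KO and all 3 WT libraries. No fold is given against a level of 0, and the gene reached the mean of 1 TPM only through Chd8 KO. Limma called it higher in Chd8 KO against WT (adjusted p = 6.68e-06), lower in DKO against Chd8 KO (adjusted p = 5.38e-06) and lower in the interaction (adjusted p = 0.00021).

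Hist1h2bb, an H2B gene (chr13:23746734-23747223) whose start region is the first shown above, set DKO apart from all other genotypes. It had 3.01, 1.82 and 4.32 TPM in DKO, 7.50, 6.87 and 8.12 TPM in Chd8 KO, 9.01, 8.42 and 7.83 TPM in P53 KO, and 9.68, 11.8 and 9.68 TPM in WT. The 3 DKO libraries were the 3 lowest of the 12, and all WT libraries were above all others. The log2 change of DKO was -1.54 ± 0.20 against WT (adjusted p = 0.0021), -1.11 ± 0.20 against Chd8 KO (adjusted p = 0.00722) and -1.26 ± 0.20 against P53 KO (adjusted p = 0.00479). The interaction was -0.84 ± 0.28 and did not pass (adjusted p = 0.157), so a dependence of the Chd8 effect on P53 was not shown for this gene.

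Hist1h2bj and Hist1h2bk, H2B genes of the same chromosome, were lower than in WT in both Chd8-deleted genotypes. Hist1h2bj had 8.59, 4.64 and 9.07 TPM in DKO, 10.4, 7.39 and 10.8 TPM in Chd8 KO, 14.3, 16.9 and 13.02 TPM in P53 KO, and 16.0, 16.4 and 15.9 TPM in WT. Its log2 change was -1.07 ± 0.21 in DKO against WT (adjusted p = 0.018), -0.71 ± 0.21 for Chd8 KO relative to WT (adjusted p = 0.0443) and -0.94 ± 0.21 in DKO against P53 KO (adjusted p = 0.0188). DKO and Chd8 KO overlapped each other and stayed below every P53 KO and WT library. Hist1h2bj is grouped by RefSeq synonyms with Hist1h2bf, Hist1h2bl and Hist1h2bn. The 4 summed to 14.6 ± 4.30 TPM in DKO, 20.6 ± 2.40 TPM in Chd8 KO, 26.3 ± 4.91 TPM in P53 KO and 29.8 ± 2.69 TPM in WT. Hist1h2bk had 6.04, 5.53 and 4.91 TPM in DKO, 6.90, 8.04 and 6.98 TPM in Chd8 KO, 5.95, 9.77 and 8.62 TPM in P53 KO, and 13.8, 14.1 and 9.07 TPM in WT. DKO and Chd8 KO lay below all WT libraries, at -1.02 ± 0.19 (adjusted p = 0.0143) and -0.66 ± 0.19 (adjusted p = 0.0411).

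Hist1h2bc (chr13:23684199-23692480) and Hist1h2bg (chr13:23571400-23571863), the most abundant H2B genes, had changes of opposite sign although they count as copies with Hist1h2be. Hist1h2bc had 39.2, 50.4 and 59.7 TPM in DKO, 52.0, 59.1 and 54.4 TPM in Chd8 KO, 40.8, 45.4 and 32.97 TPM in P53 KO, and 35.0, 42.7 and 28.8 TPM in WT. Chd8 KO was above every WT library, at 0.64 ± 0.18 (adjusted p = 0.0325), and DKO overlapped WT (0.47 ± 0.18, adjusted p = 0.153). Hist1h2bg had 10.3, 7.34 and 6.80 TPM in DKO, 19.3, 17.7 and 19.6 TPM in Chd8 KO, 44.8, 90.3 and 9.61 TPM in P53 KO, and 41.9, 29.4 and 79.5 TPM in WT. DKO and Chd8 KO were low and tight, while WT and P53 KO were widely spread. The changes of Hist1h2bg were -2.39 ± 0.62 in DKO against WT (adjusted p = 0.0537) and -1.25 ± 0.62 for Chd8 KO relative to WT (adjusted p = 0.201), and neither passed. Summed over Hist1h2bc, Hist1h2be and Hist1h2bg the level was 60.3 ± 8.71 TPM in DKO, 76.4 ± 2.84 TPM in Chd8 KO, 89.8 ± 46.6 TPM in P53 KO and 88.1 ± 19.7 TPM in WT. On that sum DKO was below WT with no overlap, and Chd8 KO overlapped WT.

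H3 genes were low, with Hist1h3c the highest at 4.82 TPM over the 12 libraries, followed by Hist1h3d at 3.87 TPM and Hist1h3g at 3.86 TPM, none of which passed a test. Hist1h3e was the only H3 gene called. It had 0.579, 0.553 and 0.877 TPM in DKO, 1.40, 0.433 and 0.520 TPM in Chd8 KO, 2.24, 2.26 and 0.990 TPM in P53 KO, and 2.19, 2.00 and 2.36 TPM in WT. All DKO and Chd8 KO libraries were below all WT libraries. The log2 change was -0.87 ± 0.25 for Chd8 KO relative to WT (adjusted p = 0.0394) and -0.93 ± 0.25 in DKO against WT, which did not pass (adjusted p = 0.0597). Summed over the 8 copies that include Hist1h3e, the level was 11.6 ± 1.76 TPM in DKO, 12.7 ± 3.61 TPM in Chd8 KO, 19.4 ± 3.10 TPM in P53 KO and 21.8 ± 1.42 TPM in WT.

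Among H4 genes, which count as copies of one another, Hist1h4i (chr13:22040960-22041362) was the gene called higher in Chd8 KO. It had 39.4, 37.6 and 42.7 TPM in DKO, 62.99, 52.6 and 61.2 TPM in Chd8 KO, 43.7, 50.8 and 37.6 TPM in P53 KO, and 47.5, 46.4 and 42.7 TPM in WT. Chd8 KO was above all other libraries, and DKO was just below WT. Its log2 change was 0.36 ± 0.11 for Chd8 KO relative to WT (adjusted p = 0.0482) and -0.55 ± 0.11 in DKO against Chd8 KO (adjusted p = 0.0126). Hist1h4d had 2.55, 5.44 and 2.46 TPM in DKO, 4.804, 4.82 and 4.10 TPM in Chd8 KO, 6.52, 6.67 and 3.60 TPM in P53 KO, and 8.28, 7.92 and 8.48 TPM in WT. WT was above all other libraries, and DKO against WT was -1.10 ± 0.26 (adjusted p = 0.033). Hist1h4b had 3.02, 2.40 and 3.67 TPM in DKO, 4.57, 3.23 and 3.82 TPM in Chd8 KO, 2.79, 3.53 and 3.32 TPM in P53 KO, and 5.46, 6.19 and 5.85 TPM in WT. Here too WT stood above all other libraries, with -0.77 ± 0.16 in DKO against WT (adjusted p = 0.0205). Hist1h4n averaged 4.505 ± 1.603 TPM in DKO, 7.81 ± 0.131 TPM in Chd8 KO, 9.94 ± 2.00 TPM in P53 KO and 9.62 ± 3.01 TPM in WT, and was lower in DKO than in P53 KO (-1.01 ± 0.24, adjusted p = 0.0234). Hist1h4f averaged 0.677 ± 0.396 TPM in DKO, 1.62 ± 0.810 TPM in Chd8 KO, 2.51 ± 0.286 TPM in P53 KO and 2.65 ± 1.19 TPM in WT, and was also lower in DKO than in P53 KO (-1.09 ± 0.31, adjusted p = 0.0422). Hist1h4k, at 6.81 TPM over the 12 libraries, passed no test.

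**Figure D3:**
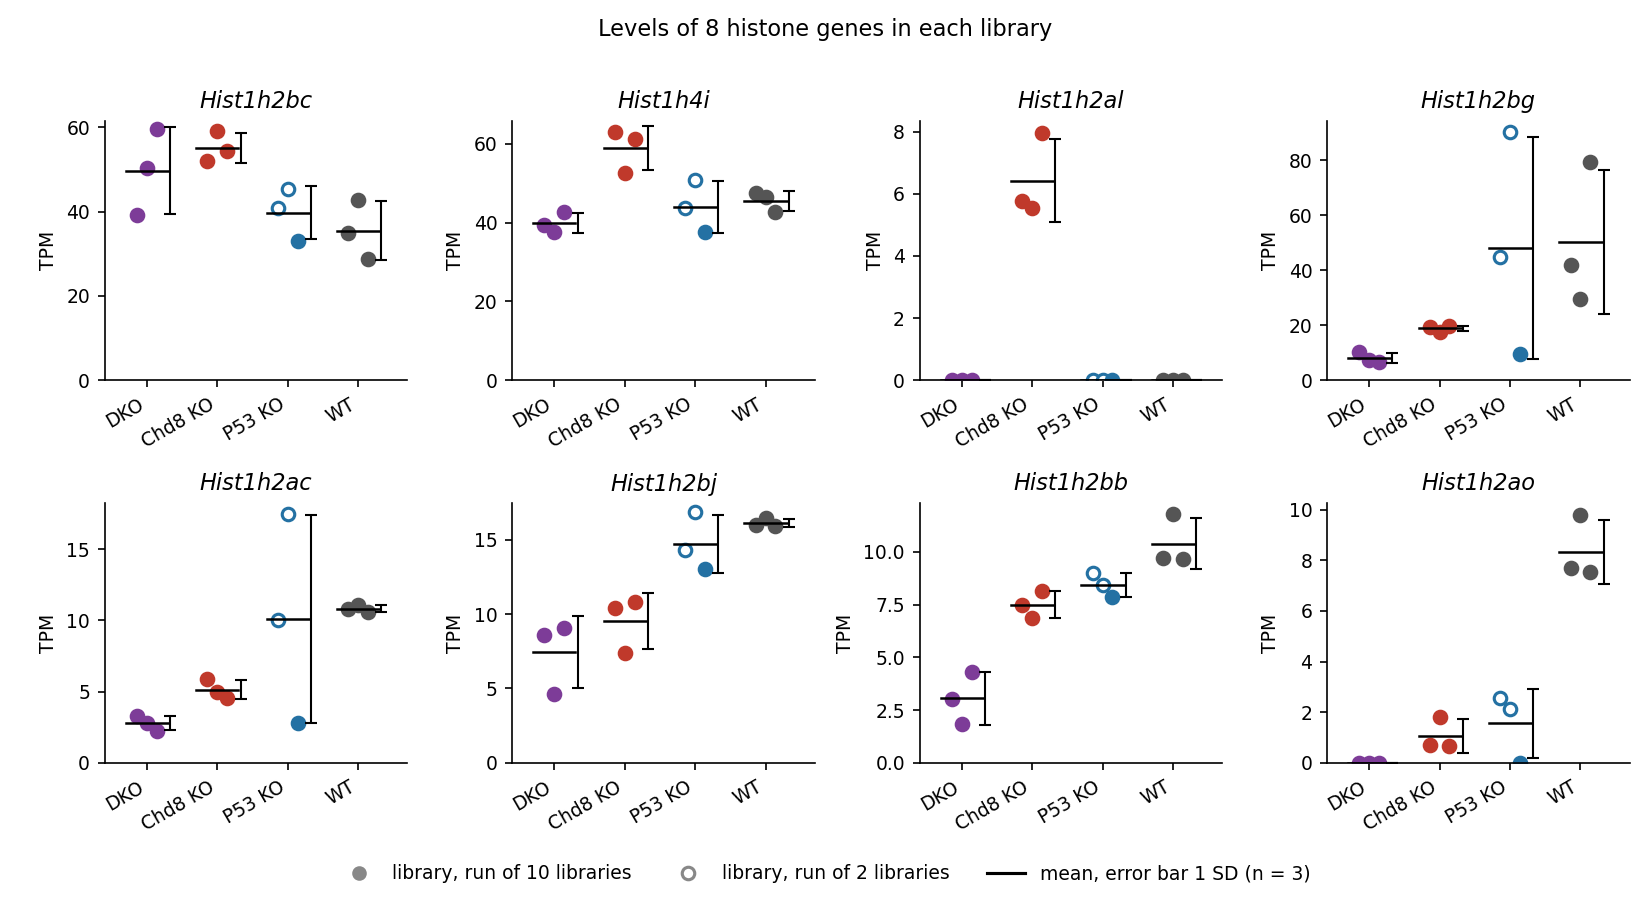
TPM of 8 histone genes in each library, by genotype, with the mean and 1 SD (n = 3), open points marking the P53 KO libraries of the other run. Hist1h2bc and Hist1h4i have their highest means in Chd8 KO, Hist1h2al is above 0 there alone, and Hist1h2bg, Hist1h2ac, Hist1h2bj, Hist1h2bb and Hist1h2ao are lower in DKO than in WT in every library.

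Position was compared next, because the genes lie in blocks. On chromosome 13, 24 genes form a proximal block and 31 a distal block. The proximal block summed to 109 ± 3.93 TPM in DKO, 146 ± 14.4 TPM in Chd8 KO, 161 ± 22.2 TPM in P53 KO and 180 ± 12.1 TPM in WT. The distal block summed to 138 ± 11.9 TPM in DKO, 169 ± 9.44 TPM in Chd8 KO, 213 ± 79.5 TPM in P53 KO and 224 ± 16.8 TPM in WT. Both blocks were thus below WT in every DKO and every Chd8 KO library. The 10 Hist2 genes, on chromosome 3, summed to 30.7 ± 5.77 TPM in DKO, 29.2 ± 4.54 TPM in Chd8 KO, 52.1 ± 17.6 TPM in P53 KO and 51.4 ± 12.1 TPM in WT. The 3 Hist3 genes, on chromosome 11, averaged 13.1 ± 4.56, 11.1 ± 1.27, 20.4 ± 8.21 and 14.4 ± 2.48 TPM in the same order. DKO and Chd8 KO both overlapped WT. The single Hist4 gene, Hist4h4, averaged 0.646 ± 0.0343 TPM in DKO and 1.056 ± 0.553 TPM in WT.

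H2A and H2B genes often lie head to head and share the DNA between their starts. Within 400 bases of each other 14 such pairs were found, on opposite strands in the 10 pairs for which both strands are known, and in 10 pairs both genes were tested. The change was negative for both genes in 9 of the 10 pairs in DKO against WT and in 9 of the 10 in Chd8 KO against WT. The exception in both was Hist1h2ac with Hist1h2bc, the pair joined by the Hist1h2ac region printed above. Of all 56 tested histone genes, 50 were negative in DKO against WT and 48 in Chd8 KO against WT, so these pair counts show nothing particular to pairs. Both genes were negative in 5 of the 10 pairs in P53 KO against WT, 4 in DKO against Chd8 KO and 7 in DKO against P53 KO. Hist1h2ac had 3.27, 2.83 and 2.26 TPM in DKO, 5.88, 4.99 and 4.53 TPM in Chd8 KO, 9.99, 17.5 and 2.81 TPM in P53 KO, and 10.8, 11.1 and 10.6 TPM in WT. DKO and Chd8 KO were below WT in every library, while its neighbour Hist1h2bc was higher in every Chd8 KO library, as given above. The changes of Hist1h2ac were -1.65 ± 0.43 in DKO against WT (adjusted p = 0.0528) and -0.95 ± 0.43 for Chd8 KO relative to WT (adjusted p = 0.159), and neither passed.

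Levels were also summed by the length of the annotated gene. RefSeq gives 7 of the genes a span of more than 1000 bases, namely Hist1h2al, Hist1h2bc, Hist1h2be, Hist1h2bp, Hist1h2bq, Hist1h2br and Hist2h2be, and most of their level is that of Hist1h2bc. These 7 summed to 61.4 ± 10.8 TPM in DKO, 74.7 ± 3.51 TPM in Chd8 KO, 53.8 ± 7.29 TPM in P53 KO and 51.0 ± 5.98 TPM in WT. The other 63 summed to 231 ± 17.4 TPM in DKO, 288 ± 30.8 TPM in Chd8 KO, 394 ± 118 TPM in P53 KO and 420 ± 26.1 TPM in WT. The short genes were thus below WT in every DKO and Chd8 KO library, and the long ones above WT in every Chd8 KO library. That difference lay in Hist1h2bc and Hist1h2al. The other 5 long genes summed to 11.7 ± 0.542 TPM in DKO, 13.1 ± 1.91 TPM in Chd8 KO, 14.1 ± 1.21 TPM in P53 KO and 15.5 ± 1.64 TPM in WT, with DKO below every WT library and Chd8 KO overlapping WT. The length limit was chosen after values were seen, so this split is a description.

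Factors that make histone mRNA were counted beside the shares of all tested genes given above. Of 19 genes for its transcription and 3′ processing, 0 passed in DKO against WT and 1 in Chd8 KO against WT, Cpsf3, which encodes the endonuclease that cuts the 3′ end (0.24 ± 0.07, adjusted p = 0.044). That is 5.26% higher, against 9.65% of all tested genes, and so few genes show nothing particular to the list. Slbp, the stem-loop binding protein, averaged 133 ± 1.80 TPM in DKO, 132 ± 8.84 TPM in Chd8 KO, 132 ± 12.3 TPM in P53 KO and 132 ± 11.5 TPM in WT. Npat averaged 19.4 ± 0.435, 18.0 ± 1.45, 14.1 ± 3.11 and 16.4 ± 1.02 TPM in the same order. It was higher in DKO than in P53 KO (0.46 ± 0.14, adjusted p = 0.0451), together with Cpsf3 and Ncbp1, and Ncbp2 was lower in DKO than in Chd8 KO. The 3 higher genes are 15.8% of the list, against 11.2% of all tested genes. Ncbp2 is 5.26% of it, against 4.21%, so these counts too show nothing particular to the list.

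Genes of DNA replication were called at shares no higher in Chd8 KO against WT than all tested genes were. Of 31 S phase genes, 0 were higher and 1, Gins1, lower in DKO against WT (median -0.07), and 2, Gins2 and Rpa1, were higher and Gins1 lower in Chd8 KO against WT (median 0.13), which is 6.45% higher and 3.23% lower, against 9.65% and 6.98% of all tested genes. Summed, they reached 3882 ± 196 TPM in DKO, 4521 ± 192 TPM in Chd8 KO, 3790 ± 387 TPM in P53 KO and 4200 ± 24.2 TPM in WT, so that Chd8 KO was above every WT library, and DKO and P53 KO both below every WT library. In DKO against Chd8 KO 5 of the 31 were lower (16.1%, against 4.21% of all tested genes), among them Mcm3, Mcm4, Gins2 and Uhrf1. The median of the 31 there was -0.22, with 28 negative. In 22 of the 31 every DKO library was below every Chd8 KO library, against 16.2% of all tested genes. Of 24 genes of G2 and mitosis, Cdk1 and Cdc20 were higher in Chd8 KO against WT (8.33%, against 9.65%), and 0 passed in DKO against WT. In DKO against Chd8 KO Cdk1 and Cenpf were lower (8.33%, against 4.21%). The median of the 24 there was -0.19, with 22 negative. Of 20 P53 targets, 15 were higher in Chd8 KO than in WT and 0 passed in DKO against WT. Cdkn1a, the cell cycle inhibitor P21, averaged 7.93 ± 0.533 TPM in DKO, 177 ± 64.4 TPM in Chd8 KO, 13.04 ± 6.31 TPM in P53 KO and 13.7 ± 0.801 TPM in WT.

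Histone chaperones carry new histones to DNA. In DKO against WT 2 of 25 were lower and 0 higher (8% lower, against 1.77% of all tested genes). In Chd8 KO against WT 2 were lower and 5 higher (8% and 20%, against 6.98% and 9.65%). Asf1b, the H3-H4 chaperone of proliferating cells, averaged 34.6 ± 2.38 TPM in DKO, 32.3 ± 0.879 TPM in Chd8 KO, 51.9 ± 4.13 TPM in P53 KO and 52.4 ± 2.00 TPM in WT. Both Chd8-deleted genotypes were below the other 2 genotypes in every library, with -0.58 ± 0.08 in DKO against WT (adjusted p = 0.00252) and -0.68 ± 0.08 in Chd8 KO against WT (adjusted p = 0.00036). Nasp, a chaperone of H3-H4 and of H1, averaged 102 ± 9.51 TPM in DKO, 125 ± 11.97 TPM in Chd8 KO, 124 ± 14.6 TPM in P53 KO and 142 ± 2.89 TPM in WT, and was lower in DKO than in WT (-0.48 ± 0.10, adjusted p = 0.0206). Hat1, which acetylates new H4, went the other way in Chd8 KO, with 115 ± 11.04 TPM in DKO, 152 ± 6.23 TPM in Chd8 KO, 75.1 ± 8.90 TPM in P53 KO and 99.9 ± 8.38 TPM in WT (0.60 ± 0.10 in Chd8 KO against WT, adjusted p = 0.00328).

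Histone variants made outside S phase were too few to set a share against all genes. Of 11 tested variants, 1, H1f0, was lower in DKO than in WT (-0.96 ± 0.22, adjusted p = 0.0312), and 1, H2afy2, which encodes a macroH2A, was higher in Chd8 KO than in WT (0.73 ± 0.18, adjusted p = 0.0221). H1f0, a linker histone linked with differentiation, averaged 37.4 ± 4.90 TPM in DKO, 51.1 ± 12.2 TPM in Chd8 KO, 80.0 ± 12.6 TPM in P53 KO and 75.0 ± 20.1 TPM in WT. H2afz, the H2A.Z gene, averaged 959 ± 71.0 TPM in DKO, 1158 ± 30.9 TPM in Chd8 KO, 773 ± 255 TPM in P53 KO and 979 ± 39.0 TPM in WT, and H2afx averaged 243 ± 11.4, 282 ± 32.0, 279 ± 10.2 and 263 ± 29.5 TPM in the same order. H2afz alone was thus higher in TPM, a scale corrected for length, than all 70 clustered genes together in every library. Clustered histone mRNAs mostly lack a poly(A) tail, and whether poly(A) RNA was selected was not given, so these levels may not be comparable. H1f0, H1fx and H2afv were lower in DKO than in P53 KO.

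**Figure D4:**
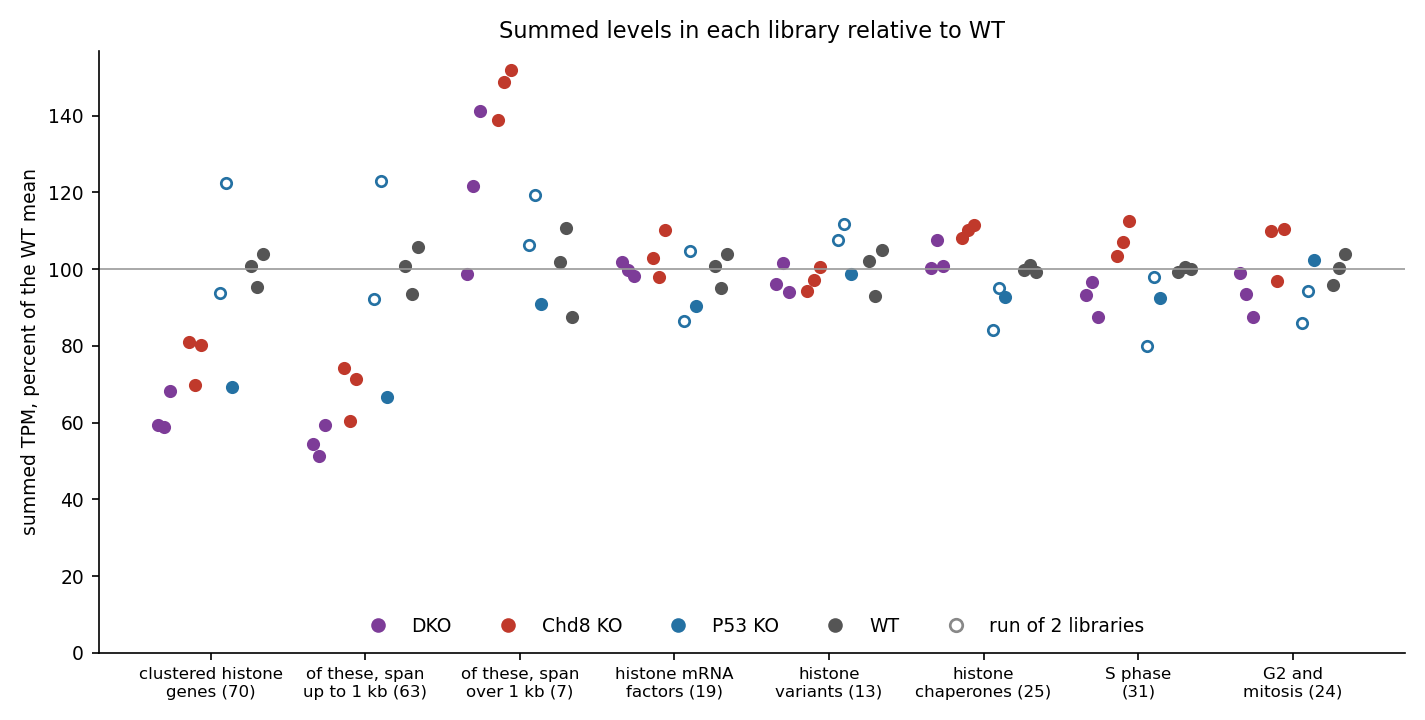
Summed TPM of gene groups in each library as a percent of the WT mean, with the number of genes in brackets. Clustered histone genes lie between 58.8% and 68.3% in DKO and between 69.9% and 81.1% in Chd8 KO, and at 93.8%, 123% and 69.2% in P53 KO. The histone mRNA factors, variants and chaperones lie between 84.2% and 112% in all libraries. S phase genes lie between 80.1% and 112%, and G2 and mitosis genes between 86% and 110%. The histone genes with a span over 1 kb lie between 87.4% and 152%.

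Markers of maturing blood cells moved with some of the same comparisons. In DKO against WT 2 of 4 T and NK cell markers (Trbc1 and Ncr1) and 1 of 7 mast cell, basophil and eosinophil markers (Prss34) were lower, and 2 of 9 erythroid markers (Hba-a2 and Alas2) and 1 of 6 macrophage and dendritic cell markers (Cd68) were higher. No B cell, megakaryocyte or neutrophil marker passed there. Over all tested genes 1.77% were lower and 3.46% higher in that comparison. In Chd8 KO against WT 5 of 7 tested B cell markers, 4 of 4 T and NK cell markers, 6 of 7 mast cell, basophil and eosinophil markers, 3 of 9 erythroid, 2 of 6 megakaryocyte and 3 of 6 macrophage and dendritic cell markers were lower, 0 of these were higher, and 0 of 9 neutrophil and monocyte markers passed. Over all tested genes 6.98% were lower and 9.65% higher there. In DKO against Chd8 KO 9 of 9 erythroid, 3 of 7 B cell and 3 of 4 T and NK cell markers were higher. So were 4 of 7 mast cell, basophil and eosinophil and 2 of 6 macrophage and dendritic cell markers. Of 6 megakaryocyte markers 3 were higher, and of 9 neutrophil and monocyte markers 1. In these lists 0 were lower, and over all tested genes 6.32% were higher and 4.21% lower in that comparison. The 8 T and NK cell markers summed to 14.8 ± 2.15 TPM in DKO, 4.57 ± 0.967 TPM in Chd8 KO, 25.9 ± 4.22 TPM in P53 KO and 36.4 ± 7.61 TPM in WT, and DKO and Chd8 KO were below every WT library, as on the histone sum. Here Chd8 KO was below DKO with no overlap, whereas on the histone sum DKO was below Chd8 KO. The 9 erythroid markers summed to 329, 938 and 1255 TPM in DKO, 70.8, 73.5 and 81.6 TPM in Chd8 KO, 109, 105 and 346 TPM in P53 KO, and 330, 249 and 170 TPM in WT. The 8 B cell markers summed to between 131 and 366 TPM in DKO, 43.4 and 51.6 TPM in Chd8 KO, 59.7 and 300.3 TPM in P53 KO, and 134 and 381 TPM in WT. The DKO libraries had the lowest histone sums, and 2 of them the highest erythroid sums. The part of these cells in the histone values was not tested.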

How the data were processed

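The authors deposited 1 table of transcript TPM per RNA library, holding 105129 transcripts and summing to 1000000, so depth is unknown and no counting error can be given. Which program computed the TPM was not given in the sources used here. The submitters' processing notes name STAR 2.6.1e, Bowtie2 2.3.4.1 and featureCounts 1.6.2 among the tools and GRCm38 (mm10) as the build. The 4 ATAC-seq and 6 CUT&RUN samples were not analysed here.

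TPM were summed per gene symbol, the symbol giving the histone class. All 70 genes matched RefSeq (GRCm38.p6), from which coordinates, synonyms and start regions come. The 13162 genes that averaged 1 TPM or more entered 1 limma fit (version 3.58.1, R 4.3.3) of log2(TPM + 1) over all 12 libraries, with 1 mean per genotype, contrasts and trended empirical Bayes variances. All p-values are two-sided and were adjusted by Benjamini-Hochberg over all of these genes. The fit was tested on simulated data. Python 3.11.15 was used with pandas 2.3.3, matplotlib 3.10.9 and numpy 2.4.6.

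The genes, lists and alternatives were chosen with earlier results of these data known. Any histone gene could be named. The called ones (in a contrast with more than 8, the 4 that rose and the 4 that fell most) and the 3 highest of each class were described in full, others by name or briefly. Other lists gave Slbp, Npat, H2afx, H2afz, Chd8, Trp53, Cdkn1a, Kit, Ly6a and up to 4 called genes with the smallest p in each contrast. Alternatives were a pseudocount of 0.1, other filters, median-of-ratios scaling, a replicate block, a fit within the run of 10, the top transcript of each gene, fits on the compared genotypes and leaving out each library in turn. Sums were also taken without the highest gene and, chosen after seeing the data, without Hist1h2bg.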

Additional observations from a re-analysis of the deposited data

Results flagged for a closer look

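Hist1h2al was flagged because the Chd8 effect differed between the backgrounds with and without P53 in a test of that difference. The interaction, the log2 change of TPM + 1 in DKO against P53 KO minus that in Chd8 KO against WT, was -2.88 (limma, adjusted p = 0.00021). The gene had 5.76, 5.55 and 7.96 TPM in the 3 Chd8 KO libraries and was listed at 0 in the 9 other libraries, so the size of the interaction depends on the pseudocount and ran from -6.01 to -2.73 over the alternatives. The gene was tested only because it is high in Chd8 KO, so this p was conditioned on the filter and is no support for an interaction. No outlier check was made, since each genotype has 3 libraries.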

How the results depend on the processing

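The count of histone genes called moved with the setting, and the cause was not tested unless fewer genes or libraries entered. In Chd8 KO against WT the 10 calls became 4 with no filter on low values, 5 with a mean of at least 5 TPM and 6 with a replicate block, and ran from 4 to 15 as each library was left out. In P53 KO against WT the 0 calls became 2 within the run of 10 libraries and ran from 0 to 2. In DKO against WT the 8 became 4 with no filter and 14 with median-of-ratios scaling, and ran from 2 to 12. In DKO against Chd8 KO the 4 became 8 within the run of 10 and 7 when only the genotypes compared were fitted, and ran from 2 to 8. In DKO against P53 KO the 6 became 3 with a mean of at least 5 TPM, 0 within the run of 10 and 0 with only the genotypes compared, and ran from 2 to 16. The interaction's 1 call became 0 with a mean of at least 5 TPM, which removed Hist1h2al, and ran from 1 to 2.

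The log2 ratio of the summed level was -0.485 in Chd8 KO to WT without Hist1h4i. It was -0.531 in P53 KO to WT and -0.155 in DKO to P53 KO within the run of 10. In DKO to WT it was -0.786 after median-of-ratios scaling and -0.564 without Hist1h2bg, a setting chosen after seeing the data. Leaving out 1 library at a time gave -0.415 to -0.310 in Chd8 KO to WT, -0.295 to 0.113 in P53 KO to WT, -0.760 to -0.648 in DKO to WT, -0.384 to -0.272 in DKO to Chd8 KO and -0.799 to -0.391 in DKO to P53 KO.

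Of 29 called gene results 8 were kept under every alternative run. They were Hist1h2ak, Hist1h2al and Hist2h2aa1 in Chd8 KO against WT, Hist1h2ao and Hist1h2bb in DKO against WT, Hist1h2al and Hist1h2bb in DKO against Chd8 KO, and Hist1h2al in the interaction. Hist1h2al and Hist1h2ao entered the main test only through the genotype where they are high, so these 4 calls were conditioned on the filter. They were also kept with no filter, and they were not tested at a mean of at least 5 TPM. The other 21 lost the call under at least 1 alternative, with the direction kept. Among the other lists Gins2 in DKO against Chd8 KO reversed, to 0.0042 on its most abundant transcript. Replicate numbers were shared between genotypes, but of 18 pairs of libraries with the same number 1 had a correlation over 0.1 (range -0.255 to 0.118), so the numbers were not read as pairs. With the replicate block the other counts were 0 in P53 KO against WT, 7 in DKO against WT, 4 in DKO against Chd8 KO, 5 in DKO against P53 KO and 1 in the interaction.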
